A study of Mus musculus with 13 samples.

Results

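The subcortical maternal complex is a multiprotein assembly of mouse oocytes and early embryos, and 7 of its genes were followed across oocyte maturation with and without the long noncoding RNA Sirena1. The genes were taken from a list of reported members of the complex and of the cytoplasmic lattices: Nlrp5, Ooep, Tle6, Khdc3, Padi6, Nlrp2 and Zbed3. All 7 were among the 54232 genes of the count table, and all 7 passed the filter on low counts that left 20143 genes for testing. RNA was sequenced from 13 pools of 25 cells. The groups were MII eggs of Sirena1 Null females (MII Null, n = 4), MII eggs of wild-type females (MII WT, n = 3), GV oocytes of Null females (GV Null, n = 3) and GV oocytes of wild-type females (GV WT, n = 3). GV (germinal vesicle) oocytes are fully grown and have not resumed meiosis, and MII (metaphase II) eggs have matured and await fertilization. Per the labels, all samples came from superovulated mice of C57BL/6 background, and GV oocytes were held in medium with IBMX, an inhibitor of meiotic resumption. The Null animals carry a Cas9-made deletion of the Sirena1 promoter and descend from heterozygotes bred with C57BL/6NCrl mice. No age is given, and no label says that the pools of a group came from separate animals, so p-values measure the spread between these pools, which may be technical.

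The complex forms while the oocyte grows and lies under the cell membrane, where it is linked to the cytoplasmic lattices, fibrous structures that store proteins and ribosomes for the embryo. Its mRNAs come from the maternal genome alone and belong to the maternal-effect genes: embryos of mothers lacking Nlrp5, Ooep, Tle6 or Padi6 stop at early cleavage. Fully grown oocytes hardly transcribe, and maturation is accompanied by degradation of some stored mRNAs and translation of others.

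Total counts ran from 30867614 to 41285507 per library, and 3 counts, taken as the detection limit, stood for 0.0727 to 0.0972 CPM per library, a limit that covers counting error only. CPM is a gene's count relative to its library's total. Levels below are CPM scaled with TMM factors, which set the bulk of genes equal between libraries. They are thus not amounts per cell, and a gene said to rise or fall did so relative to that bulk. A spike-in of 0.2 pg per pool is recorded, but no counts of it were given, so levels were not scaled to it. Sirena1, listed as C86187, stood at 41.3 ± 4.41 CPM in MII Null eggs against 4519 ± 221 CPM in MII WT eggs, and at 24.8 ± 1.58 CPM in GV Null oocytes against 3006 ± 90.2 CPM in GV WT oocytes (SD, n = 4, 3, 3 and 3). All 12 oocyte markers were counted in every library. The 20 cumulus and granulosa markers summed to 853 and 446 CPM in GV Null replicates 2 and 3, to 291 CPM in GV Null replicate 1, and to 275 to 300.1 CPM in GV WT libraries. In eggs their sums were 364 to 377 CPM in Null and 344 to 357 CPM in WT. Most of the egg sums came from Serpine2 (mean 251 CPM in MII Null, 241 in MII WT), Nr5a2 (72.5 and 60.5) and Cyp19a1 (30.8 and 36.5). These markers were higher in eggs than in oocytes. Inha, Fst, Amh, Foxl2, Gja1 and Hsd17b1 went the other way, each under 1 CPM on average in eggs. The sums thus do not compare cumulus RNA between eggs and oocytes. MII Null libraries varied among themselves, in more than 1 way. The 388 other genes at least 16-fold lower in WT eggs than in WT oocytes had a median of 1.31-fold in MII Null replicate 4 over the mean of the other 3 (on log2(CPM + 0.5)), and 272 of them were higher there than in each of the others. The 41 genes at least 4-fold higher in WT eggs had a median of 1.04-fold in replicate 4, and of 1.22-fold in replicate 1 over replicates 2 and 3. Over all counts replicate 1 differed more from replicates 2 and 3 (chi-square per degree of freedom 31.5 and 28.2) than replicate 4 did (25.9 and 20.4).

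The promoters of Padi6 and Nlrp2, which fell during maturation, and of Zbed3, which rose, are shown. These 3 genes moved in both genotypes, as did Khdc3 and Tle6, whose promoters are not shown. Each run is the 250 bases before the start site (RefSeq, GRCm38.p6, 5′ to 3′ on the gene's strand), at chr4:140742644-140742893 on the minus strand for Padi6, chr7:5351036-5351285 on the minus strand for Nlrp2 and chr13:95323355-95323604 on the plus strand for Zbed3. Capitals mark E-boxes (CANNTG), the letters bound by the oocyte factor FIGLA and by many other basic helix-loop-helix proteins.
Padi6: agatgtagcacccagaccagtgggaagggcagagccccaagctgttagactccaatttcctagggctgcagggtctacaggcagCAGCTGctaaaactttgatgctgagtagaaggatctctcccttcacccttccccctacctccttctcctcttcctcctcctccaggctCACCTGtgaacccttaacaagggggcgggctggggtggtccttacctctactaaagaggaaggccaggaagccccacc
Nlrp2: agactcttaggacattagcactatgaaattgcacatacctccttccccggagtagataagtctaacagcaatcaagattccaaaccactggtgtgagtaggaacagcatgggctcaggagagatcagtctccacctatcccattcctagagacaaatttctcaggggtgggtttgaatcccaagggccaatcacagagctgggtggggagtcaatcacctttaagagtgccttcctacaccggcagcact
Zbed3: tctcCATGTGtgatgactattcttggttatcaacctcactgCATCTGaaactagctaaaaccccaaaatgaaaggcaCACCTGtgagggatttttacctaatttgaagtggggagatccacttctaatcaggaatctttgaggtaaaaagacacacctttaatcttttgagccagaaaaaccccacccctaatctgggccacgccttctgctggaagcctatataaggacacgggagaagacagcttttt
CANNTG was matched 2 times in the Padi6 window, 0 times in that of Nlrp2 and 3 times in that of Zbed3. The windows of Khdc3, Nlrp5, Tle6 and Ooep held 5, 2, 2 and 1 matches. The Khdc3 window (73102148 to 73102397) and the Tle6 window (81600901 to 81601150) lie inside the spans given for these genes below. Where several starts are listed, as for Nlrp5 (2), Tle6 (2) and Zbed3 (3), the most upstream was used. Of 32851 full-length promoter entries of the RefSeq table, with 1 chromosome left out, 66.2% held at least 1 match. Both matches of Tle6 were CACGTG, a form found in 6.02% of promoters. TAATTG stood 1 time in the Ooep window (7.17% of promoters) and TAATTA 1 time in that of Nlrp5 (4.84%), while TATAAA stood in no window of the 7 genes (12.4% of promoters). GGGCGG was matched 2 times for Tle6, 1 time each for Nlrp5, Ooep and Padi6, and 0 times for the other 3 genes (32.7% of promoters). Motifs were searched on both strands in exactly these letters (N is any base), so variants of them were not counted. CACGTG is one form of CANNTG, and a match describes the letters only.

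Null and WT pools were compared within each stage for the effect of losing Sirena1 on these mRNAs. In GV oocytes 0 of the 7 genes passed the test (edgeR's quasi-likelihood test, Benjamini-Hochberg adjustment over all genes, threshold 0.05), where 0.0546% of all genes did. In MII eggs 0 of the 7 passed, where again 0.0546% of all genes did. An unadjusted p under 0.05 was reached by 1 of the 7 in oocytes and 1 in eggs, Ooep both times, and by 6.66% of all genes in oocytes and 6.35% in eggs. DESeq2 also called 0 of 7 at each stage. Null and WT libraries did not overlap for 1 of the 7 genes in oocytes, Zbed3, and for 0 in eggs, while 12.8% and 6.07% of all genes did not overlap. Fold changes were above 0 for 6 of 7 genes in oocytes and 4 of 7 in eggs. Their median log2 was 0.09 in oocytes, where all genes had 0.02, and 0.03 in eggs, where all genes had 0.01. In pooled cells, fewer cells holding a transcript and less RNA per cell cannot be told apart.

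**Figure D1:**
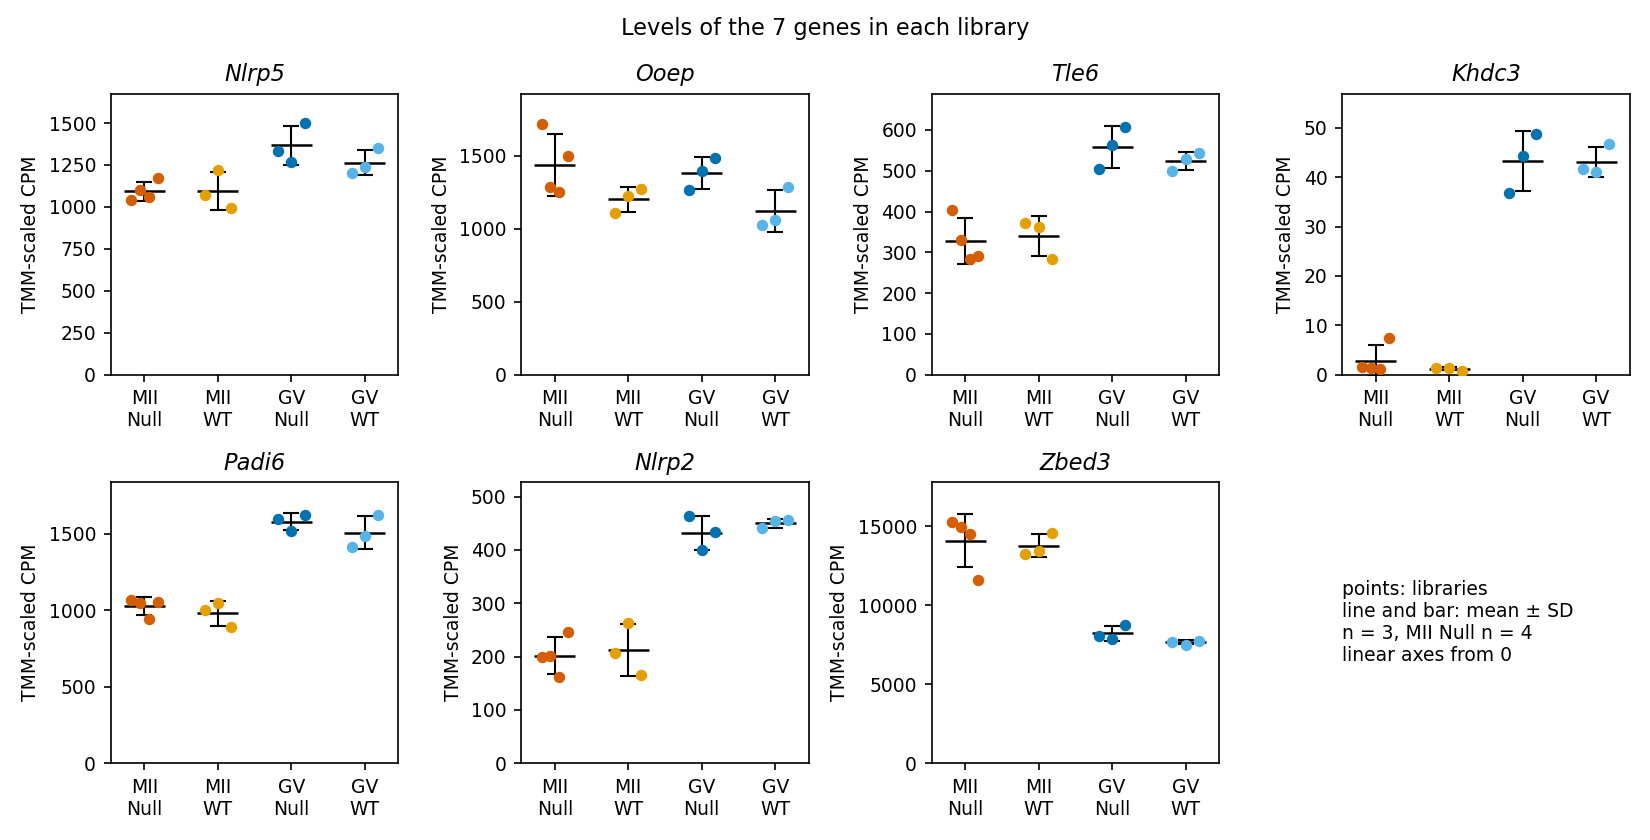
Level of each of the 7 genes in each library, in TMM-scaled CPM on linear axes that start at 0. Points are libraries, lines and bars are the mean ± SD (MII Null n = 4, other groups n = 3). Within a stage the Null and WT points overlap for all genes but Zbed3 in GV oocytes, and the stages part for Tle6, Khdc3, Padi6, Nlrp2 and Zbed3.

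Nlrp5 (ENSMUSG00000015721, chromosome 7, 23385889 to 23441923 in GRCm38.p6, as all coordinates here) encodes MATER, an NLR-family protein and scaffold of the complex. MII Null eggs had 1043, 1099, 1060.3 and 1169.8 CPM of Nlrp5, against 1070.3, 1217 and 995 CPM in MII WT eggs. GV Null oocytes had 1336, 1269.7 and 1498 CPM, against 1203, 1240.0 and 1350.3 CPM in GV WT oocytes. Null and WT values lay among each other at both stages. The log2 fold change of Null over WT was -0.0018 in eggs (SE 0.08, adjusted p = 0.998) and 0.11 in oocytes (SE 0.09, adjusted p = 0.862). The 95% intervals ran from -0.17 to 0.17 in eggs and from -0.07 to 0.29 in oocytes. Nlrp5-ps, a pseudogene of Nlrp5, held 6.20% to 7.10% as many counts as Nlrp5 in each of the 13 libraries, and how reads shared by both were counted is not given in the sources used here.

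Ooep (ENSMUSG00000032346, chromosome 9, 78376903 to 78378588) encodes FLOPED, a KH-domain protein of the core. MII Null eggs had 1715, 1286, 1251 and 1496 CPM of Ooep, against 1108, 1226 and 1273 CPM in MII WT eggs. GV Null oocytes had 1266, 1393 and 1485 CPM, against 1023, 1059.6 and 1283 CPM in GV WT oocytes. In eggs 3 of the 4 Null libraries stood above all WT libraries, and in oocytes 2 of the 3 did. Log2 fold changes were 0.26 in eggs (SE 0.11, 95% interval 0.03 to 0.48) and 0.30 in oocytes (SE 0.11, 95% interval 0.06 to 0.54). The unadjusted p was 0.0272 in eggs and 0.0169 in oocytes. After adjustment over all genes p was 0.759 in eggs and 0.691 in oocytes, so the difference did not pass at either stage. Without MII Null replicate 1, its highest library, Ooep's log2 fold change in eggs was 0.17 (adjusted p = 0.734). With both GV Null libraries high in cumulus markers left out, 1 GV Null library remained, and its log2 difference from WT oocytes was 0.17.

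Tle6 (ENSMUSG00000034758, chromosome 10, 81590904 to 81601185) encodes a relative of the Groucho corepressors that is part of the core complex. Its levels were 405, 331, 283 and 292 CPM in MII Null eggs, against 372, 363 and 284 CPM in MII WT eggs. In oocytes they were 505, 564 and 607 CPM in Null, against 501, 528 and 544 CPM in WT. The Null and WT ranges overlapped at both stages. Log2 fold changes were -0.05 in eggs (SE 0.12, adjusted p = 0.974) and 0.09 in oocytes (SE 0.13, adjusted p = 0.927). The gene overlaps Tle2 in the annotation, which had 0.222 to 2.73 CPM over the 13 libraries.

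Khdc3 (ENSMUSG00000092622, chromosome 9, 73101381 to 73106631) encodes FILIA, a KH-domain protein known in mouse embryos for a part in chromosome stability. Its levels were 1.5, 1.30, 1.08 and 7.52 CPM in MII Null eggs, against 1.26, 1.41 and 0.826 CPM in MII WT eggs. These eggs held 34 to 242 counts of Khdc3 in Null and 26 to 41 in WT. In oocytes the levels were 36.7, 44.3 and 48.7 CPM in Null, against 41.7, 41.1 and 46.6 CPM in WT. The highest egg value was that of MII Null replicate 4, while MII Null replicates 2 and 3 lay inside the WT range and replicate 1 just above it. The log2 fold change in eggs was 1.29 (SE 0.72, 95% interval -0.32 to 2.91, adjusted p = 0.844), and 0.18 without MII Null replicate 4 (adjusted p = 0.906). Of the settings tried it passed only with no filter on low counts (adjusted p = 1.17e-10). In oocytes it was 0.0027 (SE 0.51, adjusted p = 0.999), with a wide interval of -1.13 to 1.14. The 20 cumulus and granulosa markers summed to 366 CPM in MII Null replicate 4, within the range of its group. Such egg sums came mostly from Serpine2, Nr5a2 and Cyp19a1. Only 2 of the 20 markers had no count in MII Null replicate 4. Each other MII Null library had 6 to 8 without a count, and each MII WT library 7 to 9. The part of other cells in the Khdc3 value was not tested.

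Padi6 (ENSMUSG00000040935, chromosome 4, 140727355 to 140742643) belongs to the peptidylarginine deiminases and is needed for the cytoplasmic lattices. Padi6 stood at 1067, 1048, 943 and 1056 CPM in MII Null eggs, against 1002, 1048 and 889 CPM in MII WT eggs. It stood at 1597, 1516 and 1623 CPM in GV Null oocytes, against 1411, 1484 and 1625 CPM in GV WT oocytes. Values of the genotypes overlapped at both stages. Log2 fold changes were 0.07 in eggs (SE 0.07, adjusted p = 0.934) and 0.07 in oocytes (SE 0.08, adjusted p = 0.914), and no interval reached past 0.23.

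Nlrp2 (ENSMUSG00000035177, chromosome 7, 5298547 to 5351035) encodes another NLR-family protein, a maternal-effect factor reported to associate with the complex. Nlrp2 had 199, 201, 162 and 247 CPM in MII Null eggs, against 207, 262 and 165 CPM in MII WT eggs. It had 464, 400.0 and 434 CPM in GV Null oocytes, against 441, 454 and 457 CPM in GV WT oocytes. The WT oocytes lay close together, inside the range of the Null oocytes. Log2 fold changes were -0.07 in eggs (SE 0.14, adjusted p = 0.972) and -0.06 in oocytes (SE 0.15, adjusted p = 0.968). Gm5065 and Gm18757 overlap Nlrp2 in the annotation and had at most 41.3 and 9.93 CPM in any library.

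Zbed3 (ENSMUSG00000041995, chromosome 13, 95323605 to 95337842) encodes a BED zinc finger protein that binds axin in Wnt signalling and has been reported in the complex in mouse oocytes. MII Null eggs had 15266, 14927, 14533 and 11603 CPM of Zbed3, against 13266, 13403 and 14595 CPM in MII WT eggs. GV Null oocytes had 8075, 7838 and 8721 CPM, against 7678, 7497 and 7744 CPM in GV WT oocytes. In oocytes every Null library lay above every WT library, by a narrow margin, and in eggs the ranges overlapped, with MII Null replicate 4 lowest. Log2 fold changes were 0.03 in eggs (SE 0.08, adjusted p = 0.978) and 0.10 in oocytes (SE 0.09, 95% interval -0.09 to 0.29, adjusted p = 0.885). Zbed3 hosts the small nucleolar RNA gene Snora47, which has a row of its own in the table.

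**Figure D2:**
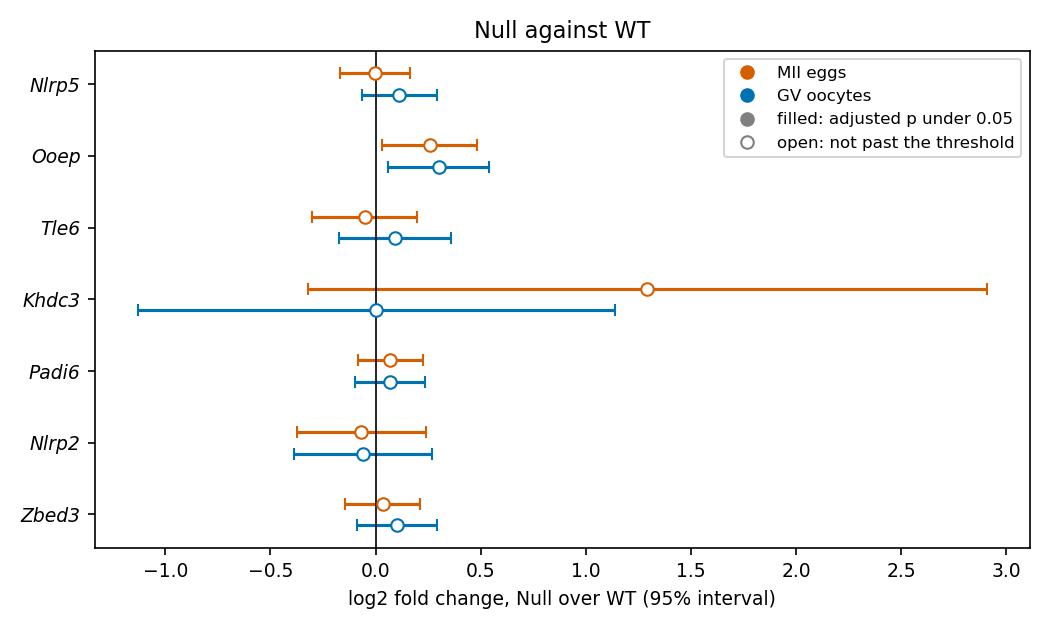
Log2 fold change of Null over WT for each gene, in MII eggs and in GV oocytes, with the 95% interval of the fit. All 14 symbols are open, which marks an adjusted p that did not pass 0.05, and the intervals of Ooep alone lie above 0 at both stages.

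Whether loss of Sirena1 acted on the genes differently at the stages was tested as the effect in eggs minus the effect in oocytes. Of the 7 genes 0 passed, where 0.00496% of all genes did, and 0 had an unadjusted p under 0.05, where 3.38% of all genes had one. DESeq2 called 0 of 7 as well. The differences of log2 fold changes were -0.11 for Nlrp5 (SE 0.12), -0.04 for Ooep (SE 0.16), -0.14 for Tle6 (SE 0.17), 1.29 for Khdc3 (SE 0.88), 0.0032 for Padi6 (SE 0.11), -0.0080 for Nlrp2 (SE 0.21) and -0.07 for Zbed3 (SE 0.12), and their adjusted p was 0.999 or 1. That of Khdc3 was 0.19 without MII Null replicate 4, and it passed only with no filter on low counts (adjusted p = 1.51e-06).

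During maturation the mRNAs of the complex parted into groups, and the genotypes gave nearly the same picture. Khdc3, Nlrp2, Tle6 and Padi6 fell in Null and in WT, Zbed3 rose in both, Nlrp5 fell in Null, and Ooep did not pass in either. In Null 1 of the 7 genes rose and 5 fell, where 22.1% of all genes were called higher and 26.9% lower. In WT 1 rose and 4 fell, where 19.9% were called higher and 22.8% lower. MII and GV libraries did not overlap for 6 of the 7 genes in Null, against 46.4% of all genes, and for 5 of the 7 in WT, against 58.3% of all genes. The members' median log2 fold change was -0.62 in Null, where all genes had -0.05, and -0.62 in WT, where all genes had 0.0053. A choice of scaling bears on these backgrounds. With library totals alone the calls were 1985 higher and 7306 lower in Null, against 4456 and 5411 with TMM, and 1831 higher and 5898 lower in WT, against 4014 and 4595. The median of all genes moved with that choice to -0.28 in Null and -0.20 in WT. All 5 members that passed in both genotypes, and Nlrp5 in Null, kept their direction and passed with each scaling. Leaving out GV Null replicates 2 and 3, whose cumulus markers were high, leaves 1 GV Null library, which the fit assumes to vary like the other groups. The values then rest on that library, with Nlrp5 at log2 -0.29 in Null. The part of cumulus, theca or stroma RNA was not tested.

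**Figure D3:**
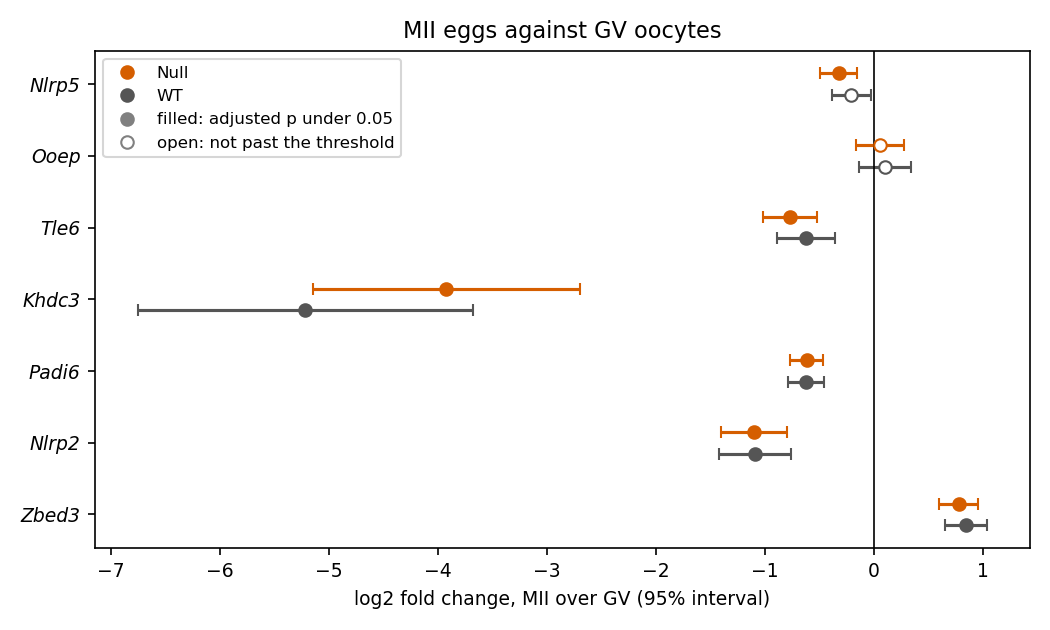
Log2 fold change of MII eggs over GV oocytes for each gene, in Null and in WT, with the 95% interval of the fit. Filled symbols passed an adjusted p of 0.05. Khdc3 lies far below the other genes in both genotypes, Zbed3 is above 0 in both, and the Null and WT intervals overlap for every gene.

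Khdc3 fell most among the 7 genes in both genotypes. Null eggs averaged 2.85 ± 3.12 CPM (SD, n = 4) and Null oocytes 43.2 ± 6.07 CPM (n = 3), 15.2-fold lower (log2 -3.92, SE 0.54, adjusted p = 0.000216). Without MII Null replicate 4 the log2 fold change was -5.07 (adjusted p = 4.87e-13). WT eggs averaged 1.17 ± 0.305 CPM and WT oocytes 43.2 ± 3.04 CPM (n = 3 each), 37.1-fold lower (log2 -5.21, SE 0.69, adjusted p = 0.000181). Each egg library lay far below each oocyte library. The genotypes' values differ mainly through MII Null replicate 4, and the difference between them did not pass, as given above.

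Nlrp2 was 2.14-fold lower in Null eggs, with 202 ± 34.8 CPM (n = 4) against 432 ± 32.0 CPM in oocytes (n = 3; log2 -1.10, SE 0.14, adjusted p = 2.12e-05). In WT it was 2.13-fold lower, with 212 ± 48.6 CPM in eggs against 451 ± 8.31 CPM in oocytes (n = 3 each; log2 -1.09, SE 0.15, adjusted p = 6.02e-05). Eggs of both genotypes varied more around their mean than WT oocytes did, with a coefficient of variation of 17.2% in MII Null, 23.0% in MII WT, 7.40% in GV Null and 1.85% in GV WT.

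Tle6 and Padi6 fell by similar factors. Tle6 averaged 328 ± 55.4 CPM in Null eggs against 559 ± 51.1 CPM in Null oocytes, 1.71-fold lower (log2 -0.77, SE 0.12, adjusted p = 4.75e-05). In WT it averaged 339.7 ± 48.9 CPM in eggs against 524 ± 22.0 CPM in oocytes, 1.54-fold lower (log2 -0.63, SE 0.13, adjusted p = 0.000764). Padi6 averaged 1029 ± 57.6 CPM in Null eggs against 1579 ± 55.9 CPM in Null oocytes (log2 -0.62, SE 0.07, adjusted p = 1.8e-06). In WT eggs it averaged 979.9 ± 81.9 CPM against 1507 ± 109 CPM in WT oocytes (log2 -0.62, SE 0.08, adjusted p = 4.95e-06). For both genes every egg library lay below every oocyte library of its genotype. Neither gene passed in either genotype when a change beyond 1.5-fold was required.

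Nlrp5 stood at 1093 ± 56.4 CPM in Null eggs and 1368 ± 117 CPM in Null oocytes, 1.25-fold lower, which passed (log2 -0.32, SE 0.08, adjusted p = 0.00249). In WT it stood at 1094 ± 113 CPM in eggs and 1265 ± 76.5 CPM in oocytes (log2 -0.21, SE 0.09, adjusted p = 0.0572), which did not pass. MII WT replicate 2, at 1217 CPM, overlapped the WT oocytes, and without it the log2 fold change was -0.29 (adjusted p = 0.0201). The WT value also passed with RLE size factors (adjusted p = 0.0417), with library totals (log2 -0.41, adjusted p = 0.000701), with a filter of 5 CPM (log2 -0.35, adjusted p = 0.0022), with DESeq2 (adjusted p = 0.0319) and in a fit of the WT groups alone (adjusted p = 0.00408). Of 14 settings tried, the WT value passed in these 6 and did not pass in 8, with log2 fold changes from -0.41 to -0.14. The Null value did not pass when a change beyond 1.5-fold was required.

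Ooep averaged 1437 ± 214 CPM in Null eggs against 1381 ± 109.9 CPM in Null oocytes (log2 0.06, SE 0.11, adjusted p = 0.688), and 1202 ± 85.2 CPM in WT eggs against 1122 ± 141 CPM in WT oocytes (log2 0.10, SE 0.11, adjusted p = 0.508). Its sign turned with library totals (-0.17 in Null, -0.10 in WT) and with the 5 CPM filter (-0.10 in Null, -0.04 in WT). No setting tried made it pass in either direction. The interval of the log2 fold change was -0.17 to 0.28 in Null and -0.14 to 0.34 in WT.

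Zbed3 was 1.72-fold higher in Null eggs, with 14082 ± 1680.0 CPM (n = 4) against 8211 ± 457 CPM in oocytes (n = 3; log2 0.78, SE 0.09, adjusted p = 7.79e-07). In WT it was 1.80-fold higher, with 13755 ± 731 CPM in eggs against 7639 ± 128 CPM in oocytes (n = 3 each; log2 0.85, SE 0.09, adjusted p = 6.12e-07). All eggs lay above all oocytes. The direction held with each scaling tried.

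The order of the group means shows the same split. For Nlrp5 and Tle6 it was GV Null, GV WT, MII WT and MII Null from high to low, for Khdc3 and Padi6 GV Null, GV WT, MII Null and MII WT, and for Nlrp2 GV WT, GV Null, MII WT and MII Null. For Zbed3 it was MII Null, MII WT, GV Null and GV WT. In these 6 genes the groups of 1 stage were neighbours and their difference did not pass. Ooep had MII Null, GV Null, MII WT and GV WT, so that Null groups stood above WT groups, and none of its tested differences passed.

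Summed over the 7 genes, the share of all counts was 1.69 ± 0.141% in MII Null eggs (n = 4), 1.65 ± 0.0513% in MII WT eggs, 1.48 ± 0.0875% in GV Null oocytes and 1.35 ± 0.0311% in GV WT oocytes (n = 3 each). Without Zbed3 it was 0.381 ± 0.0380%, 0.358 ± 0.0240%, 0.584 ± 0.0364% and 0.528 ± 0.0324% in the same groups. Zbed3 thus gave most of the counts, and without it eggs were below oocytes. These shares describe the libraries and were not tested.

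Proteins reported to work with the complex or the lattices made up a list of 28 symbols, of which 27 were in the table and tested: NLRP proteins, tubulins, cofilin, F-box proteins with their SKP1 partner, UHRF1, DNMT1, DPPA3 and UBE2D3. Null against WT, 0 of the 27 passed in eggs (3 with an unadjusted p under 0.05; smallest adjusted p = 0.754) and 0 passed in oocytes (0 with an unadjusted p under 0.05; smallest adjusted p = 0.872), and DESeq2 called 0 at each stage. Of all genes 6.35% in eggs and 6.66% in oocytes had an unadjusted p under 0.05. During maturation 2 partners rose, 21 fell and 4 did not pass in Null, where 22.1% of all genes were called higher and 26.9% lower. In WT 2 rose, 20 fell and 5 did not pass, where 19.9% were called higher and 22.8% lower. The median log2 fold change was -0.89 in Null, where all genes had -0.05, and -0.87 in WT, where all genes had 0.0053. Most partners, like Khdc3, Nlrp2, Tle6 and Padi6, were thus called lower in eggs. F-box and tubulin genes, families with close copies, make up most of the list.

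**Figure D4:**
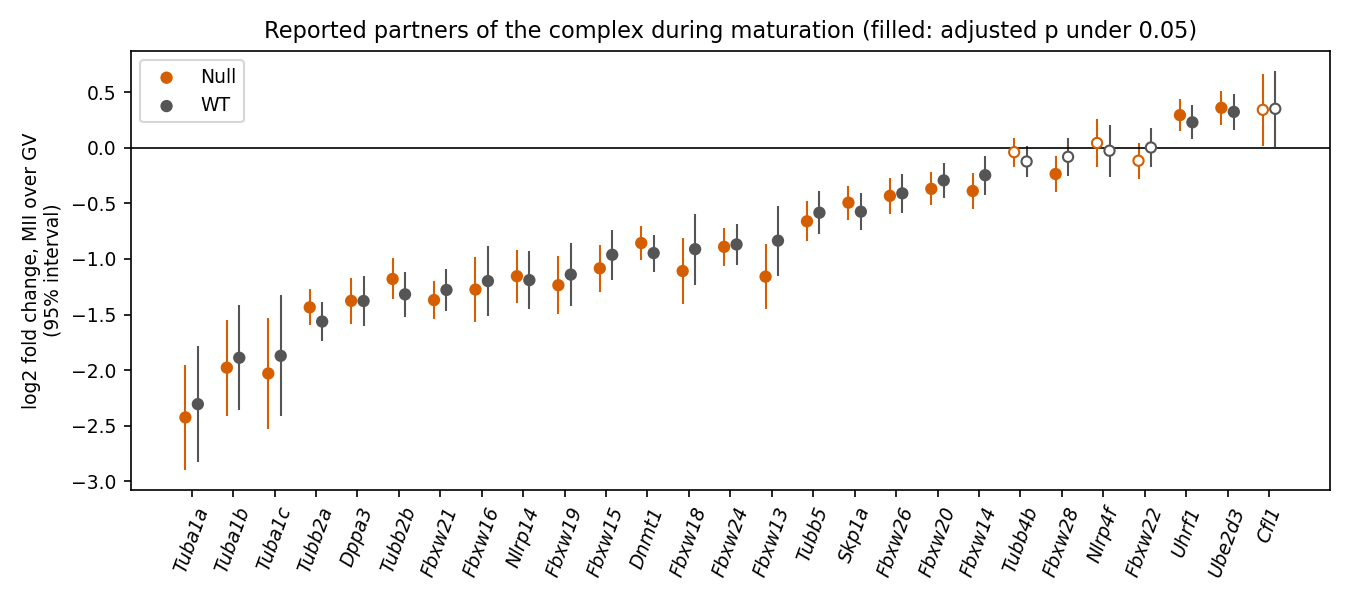
Log2 fold change of MII eggs over GV oocytes, with the 95% interval, for the 27 tested partners, ordered by the WT value. Filled symbols passed an adjusted p of 0.05. The α-tubulin genes lie lowest, near -2, and only Uhrf1 and Ube2d3 passed above 0.

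The 6 partners with the smallest p in WT all fell, and they also fell in Null. The β-tubulin genes Tubb2a (log2 -1.44 in Null, adjusted p = 8.48e-11, and -1.56 in WT, adjusted p = 1.24e-10) and Tubb2b (-1.18 in Null, -1.32 in WT) were among them. Tubulins occur in the lattices, but these genes have near-identical copies, and reads they share could be split by the counting. Dppa3, which protects the maternal genome from demethylation, had a log2 fold change of -1.38 in each genotype, and Dnmt1, the maintenance DNA methyltransferase, had -0.86 in Null and -0.95 in WT. Fbxw21 (-1.37 in Null, -1.28 in WT) and Fbxw24 (-0.89 in Null, -0.87 in WT) belong to an oocyte family of F-box genes with close copies. The 2 partners called higher and 1 not called are named after their values were seen. Uhrf1, which recruits DNMT1, had a log2 fold change of 0.29 in Null and 0.23 in WT, and Ube2d3, a ubiquitin-conjugating enzyme, had 0.36 in Null and 0.32 in WT. Neither passed with library totals alone, where 0 partners were called higher. Cfl1, the actin-severing cofilin, stood at 289 ± 51.2 CPM in Null eggs against 228 ± 48.7 CPM in Null oocytes and at 301 ± 21.4 CPM in WT eggs against 236 ± 7.25 CPM in WT oocytes, and did not pass.

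Paralogs of the members went both ways, as genes at large did. Of 36 symbols 35 were in the table and 27 were tested, and Null against WT 0 passed in eggs (3 with an unadjusted p under 0.05) and 0 in oocytes (2 with an unadjusted p under 0.05), with 0 by DESeq2 at each stage. An unadjusted p under 0.05 was reached by 6.35% of all genes in eggs and 6.66% in oocytes. With no filter on low counts 33 paralogs were tested, and 1 was called higher in eggs and 2 in oocytes. That setting called 290 of all 39595 genes in eggs and 644 in oocytes. During maturation 10 paralogs rose and 6 fell in Null, where 22.1% of all genes were called higher and 26.9% lower. In WT 7 rose and 6 fell, where 19.9% were called higher and 22.8% lower. The median log2 fold change was -0.06 in Null, where all genes had -0.05, and -0.04 in WT, where all genes had 0.0053. Zbed5, a relative of Zbed3, fell where Zbed3 itself rose (log2 -2.41 in Null, -2.43 in WT). Its mean was 17.0 ± 2.01 CPM in Null eggs against 90.8 ± 6.48 CPM in Null oocytes, and 15.5 ± 0.993 CPM in WT eggs against 83.5 ± 9.84 CPM in WT oocytes. Dppa5a, a KH-domain gene next to Ooep on chromosome 9, fell too (-2.21 in Null, -2.70 in WT). In the other direction Khdc1c, of the KH-domain family of Khdc3, rose (0.58 in Null, 0.32 in WT), as did Nlrp9b (0.40 in Null, 0.51 in WT). With library totals alone the split was 4 higher and 9 lower in Null and 2 higher and 6 lower in WT. A 5 CPM filter tested 18 paralogs, with 5 higher and 6 lower in Null and 2 higher and 4 lower in WT. The Khdc1 and Nlrp4 and Nlrp9 genes lie in clusters of close copies, so their counts are uncertain.

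Among other maternal-effect genes more were called higher than lower, an order that turned with library totals and did not hold with a 5 CPM filter. Of 23 symbols 22 were in the table and tested, and Null against WT 0 passed in eggs (1 with an unadjusted p under 0.05) and 0 in oocytes (2 with an unadjusted p under 0.05), with 0 by DESeq2 at each stage. For all genes the share with an unadjusted p under 0.05 was 6.35% in eggs and 6.66% in oocytes. During maturation 12 rose and 5 fell in Null (median log2 0.25) and 9 rose and 4 fell in WT (median log2 0.17). Over all genes 22.1% were called higher and 26.9% lower in Null (median -0.05), and 19.9% and 22.8% in WT (median 0.0053). Npm2, the oocyte nucleoplasmin, fell (log2 -1.60 in Null, -1.77 in WT), as did Zar1l, a relative of Zar1 (-0.92 in Null, -1.06 in WT). Tcl1, a coactivator of AKT kinases, rose (1.11 in Null, 1.22 in WT). So did Btg4, an adaptor of mRNA deadenylation (0.88 in Null, 0.72 in WT), Zfp57, a guardian of imprints (0.80 in Null, 0.79 in WT), and Hsf1, the heat shock factor (0.71 in Null, 0.79 in WT). With library totals alone the split was 5 higher and 6 lower in Null and 5 higher and 7 lower in WT. With the 5 CPM filter it was 6 higher and 6 lower in Null and 5 higher and 6 lower in WT.

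Profiles over the 13 libraries were compared by the root mean square difference of log2(CPM + 0.5) values, each gene centred on its own mean. Candidates were 5619 genes averaging at least 20 CPM. The members themselves and genes with provisional names, such as Gm, Rik or clone names, had been set aside. Among these candidates, the gene whose levels ran most like each member was found. For Nlrp2 it was Nlrp14, an NLR-family partner of the list above (0.09), and for Nlrp5 its pseudogene Nlrp5-ps (0.06), which may share reads with it. For Padi6 it was Txndc9 (0.06), for Tle6 Pycrl (0.09), for Ooep Gpnmb (0.10) and for Zbed3 Wasf3 (0.06). The mean profile of the 7 genes, which Khdc3 weighs on most since its change is the largest, was run closest by Zfp473 (0.09), Mrps7 (0.11), Ddx50 (0.11) and Sec22a (0.12), then by Fbxw27, Eif4a3, Gstm5 and Osbp, at up to 0.12. Among the members Tle6 and Padi6 were most alike (0.14), then Nlrp5 and Padi6 (0.19), and Khdc3 and Zbed3 were farthest apart (2.66). All these distances share libraries and depth and are descriptions.

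Khdc3 had no close match among the 5619 genes compared, and the nearest were the ribosomal protein genes Rps9 (0.31) and Rplp1 (0.36). Genes under 20 CPM on average, and those with provisional names, were not compared. Khdc3 held only 26 to 242 counts in eggs, so counting error adds to its distances. Rps9 had 4.59, 2.28, 2.61 and 8.64 CPM in MII Null eggs, against 2.25, 2.62 and 2.41 CPM in MII WT eggs. It had 62.8, 62.9 and 62.7 CPM in GV Null oocytes, against 58.9, 57.9 and 65.1 CPM in GV WT oocytes. MII Null replicate 4 was the highest egg library, as it was for Khdc3, the gene whose profile chose both. Rplp1 had 2.28, 2.00, 1.11 and 6.06 CPM in MII Null eggs, against 1.89, 1.83 and 1.40 CPM in MII WT eggs, with the same library on top. In oocytes Rplp1 ran from 79.0 to 86.2 CPM in Null and from 62.2 to 79.5 CPM in WT. Ribosomal protein genes have many processed copies in the genome, so their counts are uncertain.

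**Figure D5:**
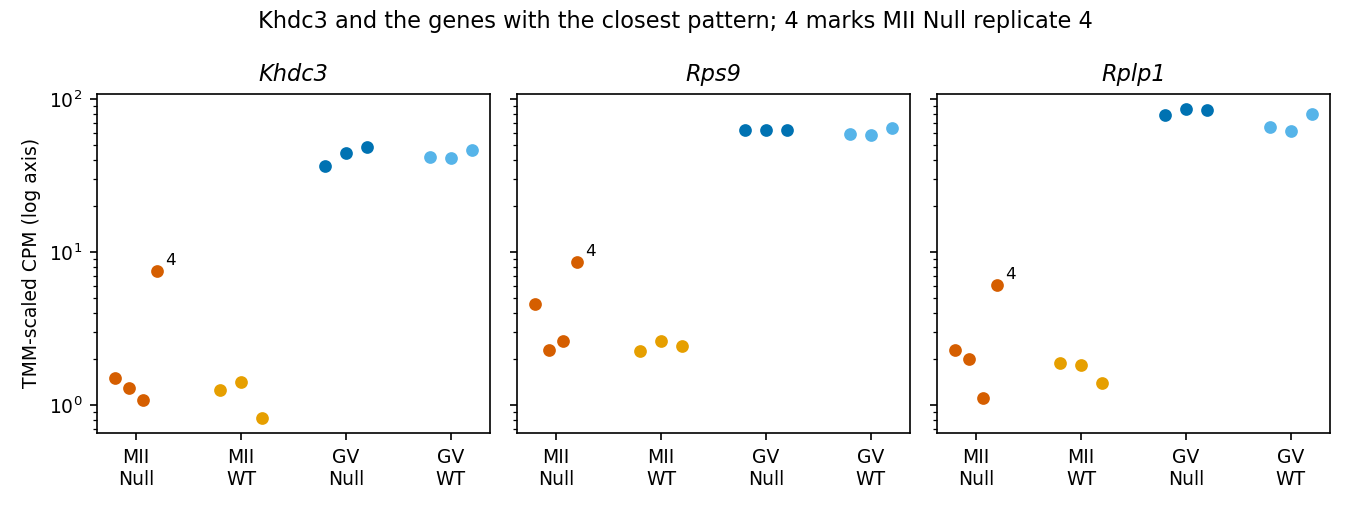
Levels of Khdc3, Rps9 and Rplp1 in each library in TMM-scaled CPM on a log axis, with groups from MII Null to GV WT. Points are libraries, and the number 4 marks MII Null replicate 4, which is the highest egg library for each of the 3 genes (7.52, 8.64 and 6.06 CPM).

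Khdc3 and Ooep lie 5.27 Mb apart on chromosome 9, and Nlrp5 and Nlrp2 both lie on chromosome 7. Genes next to the members moved in either direction during maturation. On the sides of Khdc3, Rab27a rose (log2 0.47 in Null, 0.33 in WT) and Rsl24d1 fell (-0.90 in Null, -0.998 in WT). Next to Zbed3, Pde8b rose (0.44 in Null, 0.37 in WT), and Snora47 within its span fell (-1.33 in Null, -0.68 in WT). Beside Padi6, neither Rcc2 (log2 0.18 in Null, 0.13 in WT) nor Padi4 (-0.36 in Null, -0.74 in WT) passed. Nlrp4e, left of Nlrp5, rose (0.48 in Null, 0.62 in WT).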

How the data were processed

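RNA was sequenced as single-end reads from 13 pools of 25 mouse oocytes or eggs. The authors deposited 1 table of raw read counts per gene, and per the submitters' processing notes the tools were STAR 2.5.3a and bedtools 2.26.0 with builds mm10 and GRCm38.p6. How strand and reads with several matches were treated, and by which counting tool, is not given in the sources used here. Samples were grouped by the genotype and stage in the labels. Genes were filtered by group with filterByExpr (20143 of 54232 kept), scaled with TMM, and tested over all 13 libraries and 4 groups with edgeR 4.0.16 (glmQLFit, robust, and glmQLFTest) in R 4.3.3, with Benjamini-Hochberg adjustment within each of 5 comparisons and a threshold of 0.05. The comparisons were Null over WT in each stage, MII over GV in each genotype, and the difference of the genotype effects. Standard deviations are of TMM-scaled CPM over libraries, and the intervals of log2 fold changes are 95% intervals. DESeq2 1.42.0, other scalings, filters and fits, and left-out libraries were alternatives. The procedure was run on simulated data in which few genes changed, unlike in maturation, so that run did not test the scaling for maturation. Symbols came from the reference tables (54079 of 54232 IDs), positions and promoters from RefSeq for GRCm38.p6, and Sirena1 was found as C86187 by its RefSeq synonym. Named genes are the 7 members, up to 6 of each list with the smallest p, the nearest tested neighbours and the most alike profiles, with exceptions said where they occur. Members and lists were chosen with earlier results of these data known. Levels were not compared between genes, since no lengths were used here. Replicates of a group differed beyond counting noise in every pair, and none of these pairs was identical.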

Additional observations from a re-analysis of the deposited data

Results flagged for a closer look

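Among the MII Null eggs, the only group with 4 libraries, 2 genes had 1 library far from the rest, by the gap to the nearest library over the group's range set against Dixon's 95% critical value. Khdc3 stood at 7.52 CPM in MII Null replicate 4, a gap of 0.936 of the range, with the other 3 libraries at 1.08 to 1.5 CPM. Padi6 stood at 943 CPM in MII Null replicate 3, a gap of 0.848, with the others at 1048 to 1067 CPM. Chance alone puts about 1 in 20 such groups past that value, and 8 were examined, the 7 genes and their summed share. The cause of neither was tested.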

How the results depend on the processing

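Of 217 alternative values of the members' maturation changes 201 kept direction and call, 5 lost and 6 gained a call and 5 reversed, all reversals being Ooep. Of 210 values for Null over WT 184 kept both, and of 154 for the difference of effects 123 did. Reversals were of members that did not pass. Genes called in GV oocytes numbered 644 with no filter (600 higher, 44 lower), 3 with a 1.5-fold minimum, 27 with DESeq2 and 1 without both GV Null libraries high in cumulus markers, against 11. That setting leaves 1 GV Null library, assumed to vary like the other groups, so all its values rest on that library. In MII eggs they numbered 290 with no filter (232 higher, 58 lower), 7 with a 5 CPM filter, 2 with the 1.5-fold minimum and 41 with DESeq2, against 11. The difference of effects had 157 with no filter (43 higher, 114 lower), 2 with DESeq2 and 0 with RLE, the replicate block, the 1.5-fold minimum, without the cumulus-high libraries, or without those and MII Null replicate 4, against 1. With no filter 1 member, Khdc3, was called in MII eggs and 1 in the difference, again Khdc3. Maturation calls numbered 5843 in Null and 5355 in WT with the 5 CPM filter, which tests fewer genes, 3230 and 2707 with the 1.5-fold minimum (3 members in each), and 5672 in Null without the cumulus-high libraries. As sums of scaled CPM the members' shares were 1.82% in MII Null, 1.76% in MII WT, 1.36% in GV Null and 1.26% in GV WT.

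Reversed log2 values of Null over WT in oocytes were those of Khdc3 (-0.015 with RLE, -0.013 with no filter, -0.00040 with the replicate block, -0.014 with DESeq2, -0.0019 in the groups alone, -0.23 without the cumulus-high libraries), and, without those libraries, of Tle6 (-0.054) and Nlrp2 (0.04). In eggs Nlrp5 turned (0.016 with RLE and with DESeq2, 0.0062 with no filter). In the difference of effects Nlrp2 turned (0.026 with RLE and with DESeq2, 0.014 with no filter), as did Padi6 (-0.022 with library totals, -0.015 with 5 CPM, -0.0090 with the replicate block, -0.010 without the cumulus-high libraries, -0.021 without those and MII Null replicate 4). Zbed3 turned with the replicate block (0.015) and without those and MII Null replicate 4 (0.041). Without the cumulus-high libraries Ooep was 0.086 and Tle6 0.0042, and without MII Null replicate 4 as well they were 0.068 and 0.058. In maturation Ooep was -0.17 in Null and -0.10 in WT with library totals and -0.098 and -0.037 with 5 CPM. The causes were not tested.

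Leaving out 1 library gave 6 to 139 genes in GV oocytes (139 when GV Null replicate 1 was left out, and 6 for the third Null library and for the first and the second WT library), 4 to 12 in MII eggs (4 without MII WT replicate 1 or 2) and 0 to 1 for the difference. Members called in maturation numbered 6 in Null and 5 to 6 in WT. Log2 ranges that crossed 0 were -0.093 to 0.10 for Khdc3 in oocytes; in eggs -0.064 to 0.083 for Nlrp5, -0.17 to 0.032 for Tle6, -0.22 to 0.12 for Nlrp2 and -0.00059 to 0.13 for Zbed3. In the difference they were -0.15 to 0.046 for Ooep, -0.057 to 0.070 for Padi6, -0.15 to 0.18 for Nlrp2 and -0.10 to 0.039 for Zbed3, and in Null maturation -0.073 to 0.11 for Ooep. Shares ran from 1.64% to 1.75% in MII Null, 1.62% to 1.67% in MII WT, 1.43% to 1.52% in GV Null and 1.33% to 1.36% in GV WT. Shared replicate numbers did not pair the samples (correlation of deviations -0.10 to 0.23). The replicate block changed no member's call, with 9872 genes called in Null maturation and 8752 in WT; MII Null replicate 4 has no partner and drops out of it. Levels per length were not run. The 26 to 41 counts of Khdc3 in MII WT eggs limit its precision there.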
